A study of Rattus norvegicus with 30 samples.

Results

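The genes described here are 7 genes of the angiotensin and kinin systems, chosen by name: the enzyme gene Ace, the precursor gene Agt, the angiotensin receptor genes Agtr1a, Agtr1b and Agtr2, and the bradykinin receptor genes Bdkrb1 and Bdkrb2. They are 7 of the 30562 genes in the deposited table. Of the 7, 4 passed the filter on low counts (Ace, Agt, Agtr1a and Bdkrb2) and are among the 16171 genes tested, whereas Agtr1b, Agtr2 and Bdkrb1 were removed by it. RNA was sequenced from lung cells of wild-type rats that had been sorted by microbeads for CD31, an adhesion molecule found on endothelial cells, 3 weeks after surgery. All rats had either a sham operation or a Glenn operation, which connects the superior caval vein directly with a pulmonary artery, so that the lung is fed by venous blood lacking the liver's outflow. After surgery they were kept on a control diet, a vitamin A-deficient diet or a vitamin A-excess diet. The 6 groups are therefore sham on the control diet, Glenn on the control diet, sham on the deficient diet, Glenn on the deficient diet, sham on the excess diet and Glenn on the excess diet, each with 5 libraries. The labels give no age, and they do not say whether each library came from its own animal, so the p-values measure the spread between these libraries.

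Angiotensinogen, the product of Agt, is cut to angiotensin I, and angiotensin-converting enzyme, the product of Ace, turns this into angiotensin II on the surface of lung capillary endothelium. The same enzyme degrades bradykinin, a vasodilator peptide released from kininogens by kallikreins, so it links both systems. Angiotensin II acts mainly through the AT1 receptor, which rodents encode in the duplicated genes Agtr1a and Agtr1b, and also through the AT2 receptor of Agtr2, while kinins act through the constitutive B2 receptor of Bdkrb2 and the inducible B1 receptor of Bdkrb1.

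Estimated counts per library ranged from 22.03 M to 77.6 M (median 40.0 M; M, mega), and levels are given in CPM, counts scaled to a library total of 1 M. The endothelial label was checked with the markers Pecam1 (1156 CPM ± 200, SD, n = 30) and Cdh5 (2236 CPM ± 289), which were high in every library. The alveolar type 2 cell marker Sftpc was also abundant, at 22760 CPM ± 5798 (SD, n = 30). By a level of the Y-linked gene Ddx3y above 10 CPM, 13 libraries were male and 17 female. Glenn excess had 3 male libraries and every other group 2. Sex was not a term of the reported fit, and adding it changed no call of the 4 tested genes. Library numbers in the labels fell below 500 for 22 libraries and above it for 8 (3 sham deficient, 2 Glenn deficient, 3 Glenn excess), and this number range was a term of the model. The immune gene RT1-CE16 was above 100 CPM in 13 libraries and below it in 17, with none of the sham excess libraries above it. All 8 libraries numbered above 500 were among the 13. Replicate 1 of each Glenn group had stood apart from its group in the levels of other genes when these data were examined before. Values within these subsets, or without those 3 libraries, are given where they change a call of the 4 tested genes after surgery or an averaged call of another pathway gene named with its value.

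Promoter sequences of 5 of the 7 genes were found in RefSeq's GRCr8 assembly; Agt and Bdkrb2 had no entry. The 2 shown belong to genes that passed the filter, and each runs from 250 bases before to 50 bases after the transcript start. The search, on both strands, was for 4 short motifs: AGGTCA (bound by retinoic acid receptors), GGCGCC (bound by SMAD proteins of the BMP pathway), CACCC (bound by KLF proteins) and TGACTCA (bound by AP-1). Capitals mark every match or its reverse complement, and the windows are chr10:91409879-91410178 on the plus strand for Ace and chr17:34435383-34435682 on the minus strand for Agtr1a.
Ace: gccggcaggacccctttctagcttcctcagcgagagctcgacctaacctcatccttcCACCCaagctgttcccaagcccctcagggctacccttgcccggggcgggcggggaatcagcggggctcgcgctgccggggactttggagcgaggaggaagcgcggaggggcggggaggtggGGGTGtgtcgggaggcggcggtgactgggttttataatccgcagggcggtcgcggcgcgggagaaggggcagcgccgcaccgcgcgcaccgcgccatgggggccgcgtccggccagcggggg
Agtr1a: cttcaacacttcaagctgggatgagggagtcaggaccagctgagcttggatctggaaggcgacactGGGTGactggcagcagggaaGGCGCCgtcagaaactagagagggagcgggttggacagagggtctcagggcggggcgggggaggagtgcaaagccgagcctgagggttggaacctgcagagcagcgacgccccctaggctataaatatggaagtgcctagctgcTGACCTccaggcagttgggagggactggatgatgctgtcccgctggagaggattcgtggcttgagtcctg
The Ace window had a GC content of 72.3% and that of Agtr1a 60.7%, against a median of 51.7% over all promoters of this length. The Ace window held CACCC at 193 bases before the start and its reverse complement at 72 bases before, and none of the other 3 motifs. The Agtr1a window held 1 match each of AGGTCA (20 bases before, reverse strand), GGCGCC (164 bases before) and CACCC (184 bases before, reverse strand). Of 33469 promoters, 16.2% held AGGTCA, 11.02% GGCGCC, 54.9% CACCC and 4.63% TGACTCA. The windows of Agtr1b, Agtr2 and Bdkrb1 held none of the 4. A match is a string of letters and does not show binding.

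After Glenn surgery Ace, the gene of an enzyme that degrades bradykinin among other peptides, fell on every diet. Bdkrb2, the gene of the main bradykinin receptor, rose on every diet. Averaged over diets, Ace was 1.97-fold lower and Bdkrb2 3.74-fold higher. Agt fell by 0.72 and Agtr1a rose by 0.45 on the log2 scale, and neither passed the threshold on all 3 diets. Averaged over diets, 4 of the 4 tested genes passed an edgeR adjusted p of 0.05, 2 higher and 2 lower, where 48.2% of all tested genes did (23.4% higher, 24.7% lower). The median log2 change of the 4 was -0.13 and that of all tested genes -0.01. On the control diet 3 passed, where 24.9% of all genes did, on the deficient diet 3 (27.4% of all genes) and on the excess diet 3 (21.9%). Shares of these sizes over all genes mean that a call of a single gene was common in these contrasts.

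Ace (ENSRNOG00000062101) was measured at 3772, 4077, 4975, 4680 and 4486 CPM in sham control replicates 1 to 5 and at 2115, 2296, 1691, 1807 and 1690 CPM in the Glenn control libraries. On the deficient diet it was at 4049, 4007, 3614, 5137 and 4108 CPM in sham and at 2374, 2106, 2061, 1937 and 2031 CPM in Glenn libraries. With excess vitamin A the sham libraries had 3450, 4682, 3992, 3929 and 4346 CPM and the Glenn libraries 2855, 2587, 2022, 2246 and 2071 CPM. All 15 Glenn libraries lay below all 15 sham libraries: the lowest sham library, sham excess replicate 1, was above the highest Glenn library, Glenn excess replicate 1. Of all tested genes, 5.83% separated the 15 and 15 libraries without overlap, and within a diet 17.2% (control), 19.6% (deficient) and 16.3% (excess) did.

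The group means of Ace were 4398 ± 479, 4183 ± 568 and 4080 CPM ± 464 (SD, n = 5) in the sham control, deficient and excess groups. After Glenn surgery they were 1920 ± 273, 2102 ± 164 and 2356 CPM ± 356 (SD, n = 5) in the same order of diets. The 6 means thus ran from sham control through sham deficient and sham excess to Glenn excess, Glenn deficient and Glenn control, and the only neighbours whose libraries did not overlap were sham excess and Glenn excess. The log2 change after Glenn surgery was -1.20 (SE 0.11, edgeR adjusted p = 1.67e-09) on the control diet, -1.03 (SE 0.11, adjusted p = 3.66e-08) on the deficient diet and -0.72 (SE 0.12, adjusted p = 5.71e-05) on the excess diet. Averaged over diets it was -0.98 (SE 0.06, adjusted p = 2.05e-13), and without the 3 libraries that stood apart -1.04.

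Bdkrb2 (ENSRNOG00000047300), the receptor through which bradykinin acts in the absence of injury, was measured at 1.74, 2.28, 1.71, 3.03 and 2.99 CPM in the sham control libraries and at 6.97, 4.88, 5.37, 4.57 and 5.46 CPM in the Glenn control libraries. On the deficient diet the sham libraries had 1.09, 1.40, 1.26, 1.37 and 1.96 CPM and the Glenn libraries 7.66, 7.27, 12.6, 4.72 and 9.21 CPM. With excess vitamin A the sham libraries had 0.971, 1.44, 2.97, 2.27 and 1.75 CPM and the Glenn libraries 5.03, 8.52, 5.14, 7.01 and 10.7 CPM. Every Glenn library was above every sham library, with Glenn deficient replicate 3 and Glenn excess replicate 5 the highest. At these levels a library held between 40 and 450 estimated counts in the deficient groups, where the spread within the Glenn group was widest.

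The group means of Bdkrb2 were 2.35 ± 0.64, 1.41 ± 0.33 and 1.88 CPM ± 0.77 (SD, n = 5) in the sham control, sham deficient and sham excess groups. After Glenn surgery they were 5.45 ± 0.92, 8.30 ± 2.92 and 7.27 CPM ± 2.38 (SD, n = 5). The order from high to low was Glenn deficient, Glenn excess, Glenn control, sham control, sham excess and sham deficient, and neighbours overlapped except Glenn control and sham control. The log2 change was 1.21 (SE 0.27, edgeR adjusted p = 0.00125) on the control diet, 2.55 (SE 0.29, adjusted p = 9.37e-08) on the deficient diet and 1.95 (SE 0.31, adjusted p = 2.00e-05) on the excess diet. Averaged over diets it was 1.90 (SE 0.16, adjusted p = 5.94e-11). Among the control-diet libraries high in RT1-CE16 (3 sham, 2 Glenn) the change was 0.97 and the call was lost (adjusted p = 0.0910).

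**Figure D1:**
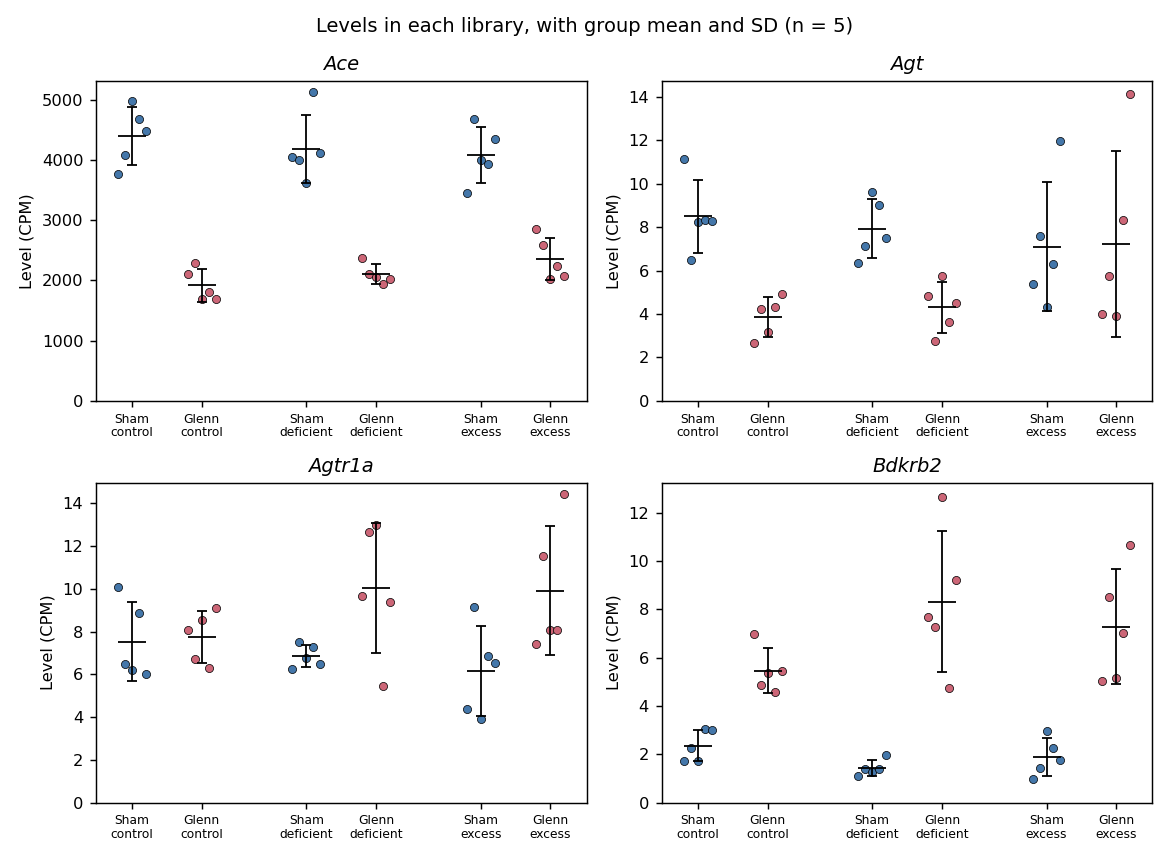
Level of Ace, Agt, Agtr1a and Bdkrb2 in CPM (y axis, from 0) in each library (points, blue for sham and red for Glenn, replicates 1 to 5 from left to right) of the 6 groups, with the group mean and SD (bars, n = 5). For Ace every Glenn library lies below every sham library and for Bdkrb2 every Glenn library lies above, while Agtr1a overlaps on each diet and Agt overlaps on the excess diet.

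Agt (ENSRNOG00000018445), which encodes the precursor of all angiotensins, was at 11.2, 6.48, 8.22, 8.35 and 8.28 CPM in the sham control libraries and at 2.65, 4.21, 3.16, 4.31 and 4.92 CPM in the Glenn control libraries. On the deficient diet it was at 6.36, 7.14, 9.64, 9.05 and 7.48 CPM in sham and at 4.85, 2.76, 5.76, 3.62 and 4.52 CPM in Glenn libraries. On the excess diet the sham libraries had 5.37, 7.59, 4.30, 6.30 and 11.99 CPM and the Glenn libraries 4.01, 5.73, 3.89, 8.31 and 14.2 CPM. The Glenn libraries lay below the sham libraries without overlap on the control and the deficient diet. On the excess diet the groups overlapped, and the highest of all 30 values was in Glenn excess replicate 5.

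The means of Agt were 8.50 ± 1.68 and 3.85 CPM ± 0.92 (SD, n = 5) in the sham and Glenn control groups. They were 7.93 ± 1.36 and 4.30 CPM ± 1.15 on the deficient diet, and 7.11 ± 2.98 and 7.22 CPM ± 4.27 on the excess diet (SD, n = 5). In the order of the 6 means every pair of neighbours overlapped. The log2 change after Glenn surgery was -1.14 (SE 0.28, edgeR adjusted p = 0.00343) on the control diet and -0.78 (SE 0.29, adjusted p = 0.0468) on the deficient diet. On the excess diet it was -0.23 (SE 0.33, adjusted p = 0.670) and did not pass, though the Glenn mean was slightly above the sham mean. The log2 changes come from the model with the library number range as a term, whereas the means are unadjusted. Averaged over diets the log2 change was -0.72 (SE 0.17, adjusted p = 0.000726). The call on the deficient diet was lost when any of 17 of the 30 libraries was left out (adjusted p of 0.0151 to 0.155 over the 30 fits), and in 5 of 13 other settings. These were libraries numbered below 500 (-0.59, adjusted p = 0.290), libraries low in RT1-CE16 (-0.60, adjusted p = 0.346), libraries high in it (-1.11, adjusted p = 0.0734), DESeq2's size factors (-0.77, adjusted p = 0.0507) and no filter on low counts (-0.78, adjusted p = 0.0622). The first 2 of these settings hold the same libraries of this diet, sham replicates 1 and 2 and Glenn replicates 1 to 3. They are therefore not separate checks. On the control diet the call was lost among libraries high in RT1-CE16 (-0.83, adjusted p = 0.164).

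Agtr1a (ENSRNOG00000018346), the gene of the main AT1 receptor of rodent vessels, was at 10.1, 6.47, 6.19, 8.86 and 6.04 CPM in the sham control libraries and at 8.10, 6.71, 8.55, 6.30 and 9.13 CPM in the Glenn control libraries. On the deficient diet the sham libraries had 6.25, 7.49, 6.75, 7.27 and 6.47 CPM and the Glenn libraries 9.66, 12.7, 13.0, 5.47 and 9.38 CPM. Excess-diet sham libraries had 4.38, 9.15, 3.90, 6.84 and 6.52 CPM and the Glenn libraries 7.42, 11.6, 8.08, 8.10 and 14.4 CPM. Sham and Glenn libraries overlapped on every diet. On the deficient diet 4 of 5 Glenn libraries were above all sham libraries, and Glenn deficient replicate 4 was below all of them.

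The means of Agtr1a were 7.53 ± 1.84, 6.85 ± 0.52 and 6.16 CPM ± 2.11 (SD, n = 5) in the sham groups (control, deficient and excess diet in turn). In the Glenn groups they were 7.76 ± 1.21, 10.03 ± 3.05 and 9.92 CPM ± 3.00 (SD, n = 5), and every pair of neighbours in the order of the 6 means overlapped. The log2 change after Glenn surgery was 0.04 (SE 0.22, edgeR adjusted p = 0.923) on the control diet and 0.49 (SE 0.23, adjusted p = 0.117) on the deficient diet, neither past the threshold. On the excess diet it was 0.81 (SE 0.25, adjusted p = 0.0211), and averaged over diets 0.45 (SE 0.13, adjusted p = 0.00565). The call on the excess diet was lost among libraries numbered below 500 (0.64, adjusted p = 0.130), when only its 2 groups were fitted (adjusted p = 0.247), among libraries low in RT1-CE16 (adjusted p = 0.156), and without sham excess replicate 1 (0.0571), sham excess replicate 3 (0.0600) or Glenn excess replicate 2 (0.0783). The first 3 of these losses are not separate checks. Both subsets hold the same libraries of this diet, all sham libraries and Glenn replicates 1 and 2. In the fit of its 2 groups the number range varied only among Glenn libraries. That change (0.64) therefore also rested on Glenn replicates 1 and 2. The averaged call was lost among libraries low in RT1-CE16 (0.45, adjusted p = 0.0614). Without Glenn deficient replicate 4 the change on the deficient diet was 0.69 and passed (adjusted p = 0.0277).

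The other AT1 receptor gene, Agtr1b (ENSRNOG00000010640), had 8.005 estimated counts in all 30 libraries together. They came from sham control replicate 1 (1 count), Glenn control replicate 5 (2.005 counts) and Glenn excess replicate 3 (5 counts, 0.149 CPM), and the other libraries were at 0. A count of 0 in a library allows up to 3 counts, or between 0.0386 and 0.136 CPM depending on its depth, and such limits cover counting error only. Agtr1a and Agtr1b are close paralogs, so the split of reads between them rests on the authors' estimate.

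Agtr2 (ENSRNOG00000050006), whose AT2 receptor is mostly fetal in expression and opposes AT1 signalling, had 50 counts over 13 of the 30 libraries, 22 in sham and 28 in Glenn libraries. Its highest value was 10 counts (0.237 CPM), in a Glenn control library. Bdkrb1 (ENSRNOG00000004488), the kinin receptor induced by inflammation, had 135.6 estimated counts over 25 libraries. Of these, 36.1 counts came from 11 sham libraries and 99.5 from 14 Glenn libraries, with 25 counts (0.655 CPM) in Glenn control replicate 1 alone. Without the filter, the edgeR fit gave Bdkrb1 an averaged log2 change of 1.43 that did not pass (adjusted p = 0.0583). Differences between groups in these 3 genes were not detectable at this depth.

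**Figure D2:**
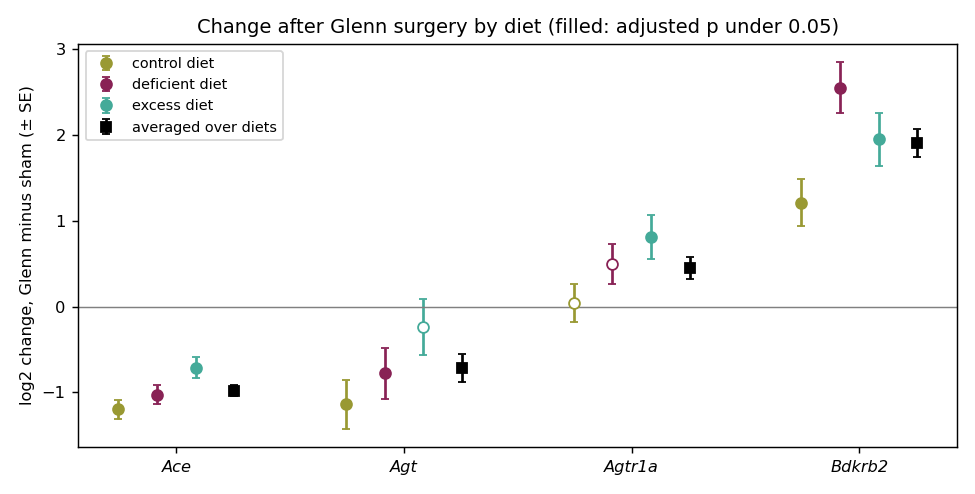
Log2 change of the 4 tested genes, Glenn minus sham (y axis, log2 units), on each diet (circles) and averaged over diets (squares), with bars of 1 SE. Filled symbols passed an edgeR adjusted p of 0.05. Ace is below 0 and Bdkrb2 above 0 on all 3 diets, the change of Agt on the excess diet is -0.23 and that of Agtr1a on the control diet 0.04.

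The diets were then compared within each type of surgery. None of the 4 tested genes passed edgeR's adjusted p of 0.05 in any of the 6 comparisons between diets, in which few genes passed at all. The shares of all tested genes were 0% for deficient against control, 0.241% for excess against control and 0.0124% for excess against deficient in sham libraries, and 0.00618%, 1.47% and 0% in Glenn libraries in the same order. At an unadjusted p of 0.05, 1 of the 4 passed in each of 4 of these comparisons, and DESeq2 called 0 in all 6 after adjustment. At that unadjusted threshold the shares of all tested genes were 5.22%, 11.1% and 5.28% in sham libraries and 9.88%, 13.9% and 5.18% in Glenn libraries, in the same order. In limma voom 1 gene was called: Ace, in Glenn libraries, was 0.41 higher with excess than with control diet (adjusted p = 0.0364). In edgeR the same difference was 0.37 (SE 0.12, unadjusted p = 0.00437, adjusted p = 0.116), with libraries of the groups overlapping. Bdkrb2 on the deficient against the control diet had a log2 difference of -0.74 after sham surgery (SE 0.32, edgeR unadjusted p = 0.0280, adjusted p = 0.859) and of 0.60 after Glenn surgery (SE 0.28, unadjusted p = 0.0367, adjusted p = 0.464). Agt after Glenn surgery differed by 0.62 between the excess and the deficient diet (SE 0.30, edgeR unadjusted p = 0.0455, adjusted p = 0.950).

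Whether the change after surgery itself differed between diets was tested as an interaction. None of the 4 genes passed (edgeR adjusted p of 0.681 for Bdkrb2, 0.771 for Ace, 0.931 for Agtr1a and 0.971 for Agt), where 0.00618% of all genes did. Before adjustment, the edgeR p was 0.00690 for Bdkrb2 and 0.0217 for Ace, and 5.72% of all genes had an unadjusted p under 0.05. Neither DESeq2 nor limma voom called any of the 4 after adjustment. The change of Bdkrb2 after surgery was 1.34 larger on the deficient than on the control diet (SE 0.39, edgeR unadjusted p = 0.00194, adjusted p = 0.996). That of Ace was 0.48 less negative with excess than with control diet (SE 0.16, edgeR unadjusted p = 0.00617, adjusted p = 0.392). Of all genes, 0.0186% passed in the latter comparison and 0% in the former. A difference between diets in the response to surgery was therefore not shown for any of them.

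Markers of other cell types moved with surgery. Averaged over diets, 23.4% of all tested genes were higher and 24.7% lower after Glenn surgery. The summed level of 8 endothelial markers was 8529 CPM ± 615 (SD, n = 15, range 7564 to 9768) in sham and 6879 CPM ± 668 (5484 to 8034) in Glenn libraries, with 5 of 8 lower and 2 higher. That of the pericyte markers was 134 CPM ± 16.7 (94.6 to 159) in sham and 259 CPM ± 80.1 (192 to 487) in Glenn libraries, with 7 of 7 tested higher. The smooth muscle markers summed to 175 CPM ± 38.7 (106 to 263) in sham and 658 CPM ± 275 (349 to 1486) in Glenn libraries, with 7 of 7 higher. Pericyte and smooth muscle cells surround the endothelium and are known to carry angiotensin and bradykinin receptors. Neither sum overlapped between sham and Glenn libraries. In bulk RNA, fewer cells of a type and less RNA per cell cannot be told apart.

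Ace was set against the endothelial markers, since the enzyme is best known from endothelium. Per 1000 CPM of these markers Ace was at 495 CPM ± 42.2 (SD, n = 15, range 406 to 548) in sham and 309 CPM ± 29.1 (278 to 359) in Glenn libraries. The Glenn ratio was 0.58 times the sham ratio on the control, 0.63 times on the deficient and 0.66 times on the excess diet, with no overlap on any of them. The 6 general capillary markers, another endothelial list, summed to 8830 CPM ± 769 in sham and 4277 CPM ± 845 in Glenn libraries (SD, n = 15), without overlap. The Glenn mean of this sum was 0.48 times the sham mean, and no ratio of Ace to this list was taken. Of the 6, 5 were lower averaged over diets, 5 on the control diet and 2 on each of the other diets, and their median averaged log2 change was -0.28. Most of the difference between the sums was that of Plvap, which encodes a protein of endothelial fenestrae, at 5149 CPM ± 651 in sham and 1563 CPM ± 545 in Glenn libraries (SD, n = 15). The part that the capillary cells have in the lower Ace level was not tested.

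The receptors and Agt were set against the pericyte and smooth muscle lists. Per 1000 CPM of pericyte markers Bdkrb2 was at 14.0 CPM ± 4.74 (8.12 to 25.3) in sham and 27.1 CPM ± 5.02 (20.5 to 36.3) in Glenn libraries (SD, n = 15), separate on the control and deficient diets and overlapping on the excess diet. Per 1000 CPM of smooth muscle markers it was at 11.2 CPM ± 4.55 (5.78 to 19.6) in sham and 11.1 CPM ± 2.79 (7.18 to 16.3) in Glenn libraries (SD, n = 15). The Glenn ratio was thus 0.99 times the sham ratio over all diets, at 0.76 (control diet), 1.54 (deficient diet) and 0.92 (excess diet) when split, and the libraries overlapped on each. The corresponding ratio to endothelial markers was 4.58 times higher after Glenn surgery.

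Agtr1a per 1000 CPM of pericyte markers was at 51.3 CPM ± 11.2 (33.2 to 75.9) in sham and 36.4 CPM ± 7.98 (26.7 to 55.3) in Glenn libraries (SD, n = 15), overlapping on every diet. Against smooth muscle markers it was 0.37 times the sham ratio and lower without overlap. Agt per 1000 CPM of pericyte markers was at 58.5 CPM ± 12.6 in sham and 19.4 CPM ± 6.52 in Glenn libraries (SD, n = 15), separate on the control and deficient diets. Glenn deficient replicate 3, which had the highest Bdkrb2 level, also had the highest pericyte sum (487 CPM) and the highest smooth muscle sum (1486 CPM) of all libraries. Glenn excess replicate 5, with the highest Agt and Agtr1a levels, had the next pericyte sum (379 CPM) and the next smooth muscle sum (908 CPM). Not every level went with these sums. In Glenn deficient replicate 3 Agt was at 5.76 CPM, below the sham mean of 7.85 CPM. Glenn control replicate 3 had the highest smooth muscle sum of its group (747 CPM), with Agt at 3.16 and Bdkrb2 at 5.37 CPM. The fibroblast markers summed to 2219 CPM ± 603 in sham and 2872 CPM ± 738 in Glenn libraries (SD, n = 15), overlapping on every diet, with 7 of 8 higher averaged over diets and a median log2 change of 0.72. The part of pericytes, smooth muscle cells, fibroblasts and arterial cells in the levels of Agt, Agtr1a and Bdkrb2 was not tested.

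**Figure D3:**
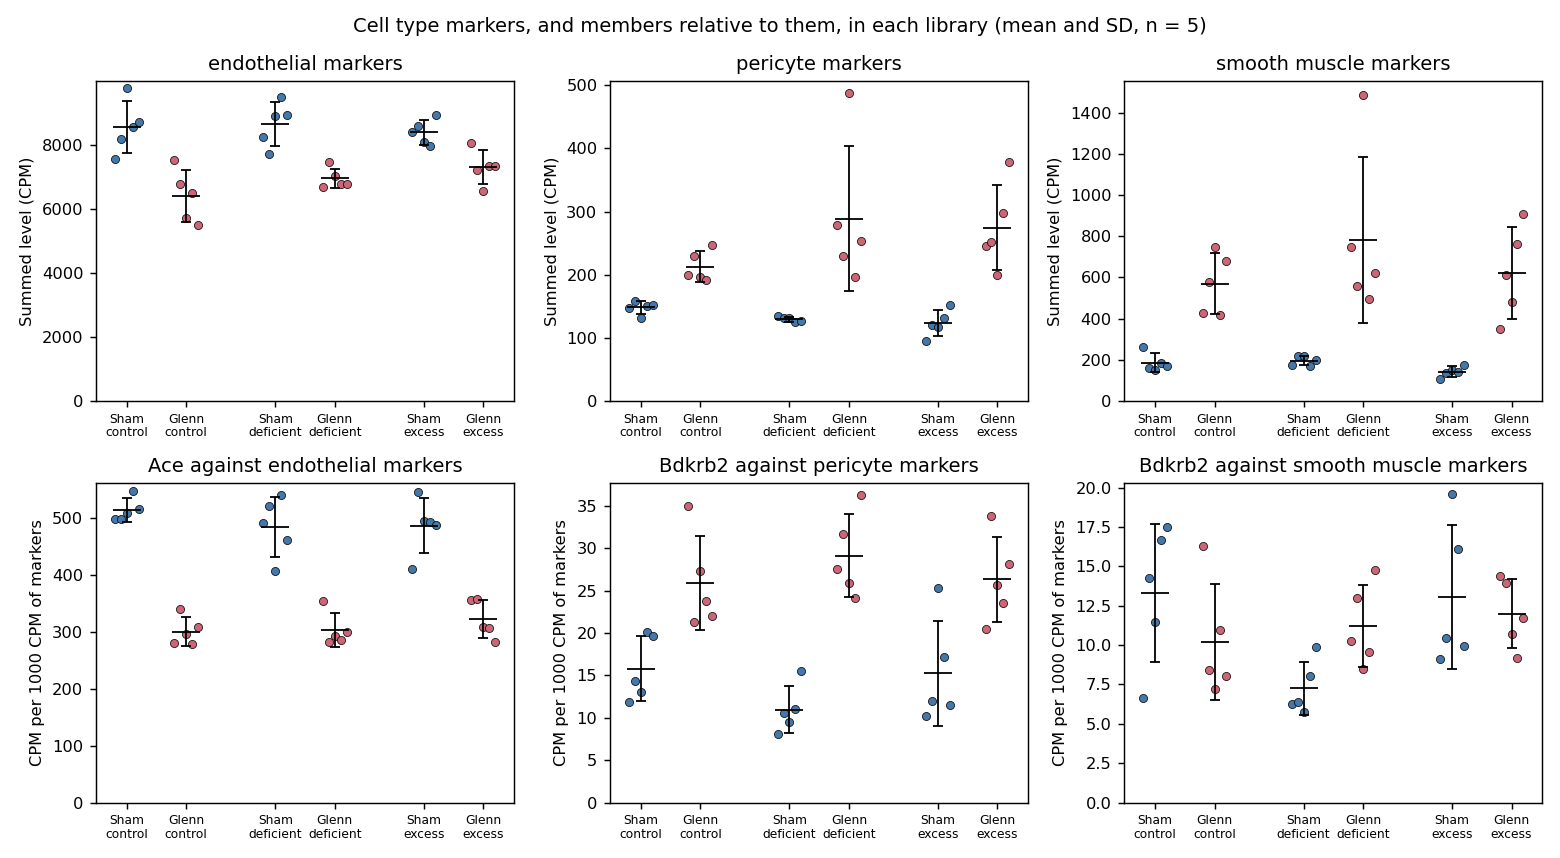
Summed CPM of the endothelial, pericyte and smooth muscle markers (upper row) and CPM of Ace or Bdkrb2 per 1000 CPM of marker genes (lower row) in each library of the 6 groups (points, blue for sham and red for Glenn), with group mean and SD (n = 5); all y axes start at 0. Ace against endothelial markers separates sham from Glenn libraries on every diet, and Bdkrb2 against smooth muscle markers overlaps on every diet.

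For each tested gene the 3 genes with the most similar levels over the 30 libraries were found by Pearson's r of log2(CPM + 1) among 12539 genes. This is a description: the libraries share the surgery contrast, depth and cell mixture. The nearest to Ace were Acvrl1 (r = 0.981), the endothelial BMP receptor ALK1, Epas1 (r = 0.974), a hypoxia-inducible factor, and Nipal2 (r = 0.968). With group means subtracted they were Tek (r = 0.857), the angiopoietin receptor, Sec14l1 (r = 0.838) and Arrb1 (r = 0.793). The nearest to Bdkrb2 were Sparcl1 (r = 0.962), a matrix protein gene, Synpo (r = 0.961), which encodes an actin-binding protein, and Dkk2 (r = 0.949), a Wnt pathway modulator. Dkk2 is also 1 of the 8 arterial markers given below. Sparcl1 (r = 0.832) and Synpo (r = 0.789) were also the nearest to Bdkrb2 with group means subtracted, followed by Atp2a3 (r = 0.777).

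Agt was most like Ankzf1 (r = 0.797), Vtn (r = 0.796) and B4gat1 (r = 0.723). With group means subtracted its nearest genes were Heyl (r = 0.828), a Notch target of mural cells, the pericyte marker Pdgfrb (r = 0.826) and the muscle filament gene Des (r = 0.819), although Agt fell and Pdgfrb and Des rose after Glenn surgery. Agtr1a was most like Arvcf (r = 0.770) and Tspan3 (r = 0.763), and with group means subtracted most like Tspan3 (r = 0.746), Thbs2 (r = 0.735) and Mgp (r = 0.7099). Among the 4 genes themselves, with group means subtracted, Agt and Agtr1a had an r of 0.49 and Agtr1a and Bdkrb2 of 0.43. Ace stood near 0 against the others, at -0.07 with Agt, 0.03 with Agtr1a and 0.06 with Bdkrb2 (n = 30).

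A list of 38 further genes of both pathways was examined, of which 28 were tested. Averaged over diets, 17 fell and 4 rose after Glenn surgery, 75% of those tested against 48.2% of all genes, and their median log2 change was -0.27 against -0.01. Of all tested genes 24.7% fell and 23.4% rose in that contrast, and 5.83% separated the 15 sham and 15 Glenn libraries without overlap. On the control diet 12 fell and 1 rose, where 13.1% and 11.8% of all genes did. The counts were 11 and 3 on the deficient diet (13.7% of all genes each way), and 9 and 5 on the excess diet (10.4% and 11.6%). Among the 4 genes of angiotensin formation, Atp6ap2, which encodes an accessory protein of the vacuolar proton pump, fell by 0.28 (SE 0.03, edgeR adjusted p = 1.95e-08). Its level was 143 CPM ± 7.71 in sham and 118 CPM ± 6.95 in Glenn libraries (SD, n = 15). Mast cell chymase (Cma1) was tested and did not pass (0.13, adjusted p = 0.868), and Ctsg and Klk1 were removed by the filter.

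Of 8 genes of alternative angiotensin enzymes and receptors, 7 were tested, and 3 fell while 2 rose. Neprilysin (Mme), which forms angiotensin-(1-7) and also degrades bradykinin, had a level of 73.4 to 144 CPM (median 110) in sham and 36.2 to 91.1 CPM (median 58.1) in Glenn libraries. It fell by 0.76 (SE 0.13, edgeR adjusted p = 1.46e-05), with overlapping libraries. Prolylcarboxypeptidase (Prcp), which inactivates angiotensin II and activates prekallikrein, rose by 0.41 (SE 0.09, adjusted p = 0.000435), and neurolysin (Nln) rose by 0.26 (SE 0.05, adjusted p = 0.000264). Lnpep, the angiotensin IV-binding aminopeptidase, fell by 0.23 (SE 0.05, adjusted p = 0.000345). The receptor gene Mas1 was at most 0.524 CPM and did not pass (adjusted p = 0.0555), though it did without the 3 libraries that stood apart (adjusted p = 0.0409), and Mrgprd was removed by the filter.

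Among the aminopeptidases, Rnpep, which removes basic residues from peptide ends, rose by 0.69 (SE 0.06, edgeR adjusted p = 2.34e-11). It was at 33.0 to 45.6 CPM (median 38.2) in sham and at 47.1 to 80.7 CPM (median 58.8) in Glenn libraries, without overlap. Enpep, which turns angiotensin II into III, fell by 0.67 (SE 0.17, edgeR adjusted p = 0.00198), a call that was lost among libraries numbered below 500 (adjusted p = 0.0558). Anpep, which acts on angiotensin III, fell by 0.35 (SE 0.14, adjusted p = 0.0327) and lost its call in 11 of 41 other fits, including those without the 3 libraries that stood apart (-0.28, adjusted p = 0.0941) and among libraries low in RT1-CE16 (-0.50, adjusted p = 0.0551). Dpp3 had no row in the table.

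All 8 regulators of angiotensin receptors were tested, 6 fell and none rose, where 24.7% of all tested genes fell and 23.4% rose. Mtus1, whose product binds the AT2 receptor, was at 482 to 613 CPM (median 531) in sham and at 271 to 450 CPM (median 328) in Glenn libraries, with no overlap. It fell by 0.65 (SE 0.04, edgeR adjusted p = 1.76e-13). The G protein genes Gna11 and Gnaq, through which AT1 and B2 receptors signal, fell by 0.46 (SE 0.04, adjusted p = 7.57e-10) and 0.31 (SE 0.04, adjusted p = 1.06e-07). The receptor kinase gene Grk5 fell by 0.44 (SE 0.05, adjusted p = 1.35e-08). The remaining 2 that fell were Arrb1 and Arrb2, which encode the beta-arrestins. Arrb1 lost its call among libraries numbered below 500 (-0.18, adjusted p = 0.113) and among those low in RT1-CE16 (-0.13, adjusted p = 0.373), and so did Arrb2 (-0.22, adjusted p = 0.0740, and -0.12, adjusted p = 0.389). Agtrap and Arap1 did not pass.

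Genes that release and break down kinins complete the list. Serping1, the inhibitor of plasma kallikrein, rose by 0.39 (SE 0.07, edgeR adjusted p = 3.43e-05) and was the only tested gene of 6 in its group; Kng1, Klkb1 and F12 were removed by the filter, and Kng2 and Kng2l1 had no row. Of 8 kinin-degrading enzymes 7 were tested, and 5 fell while none rose, where 24.7% of all tested genes fell and 23.4% rose. Xpnpep2, aminopeptidase P, which removes the first residue of bradykinin on the surface of lung endothelium, was at 370 to 484 CPM (median 413) in sham and 122 to 254 CPM (median 183) in Glenn libraries. It fell by 1.17 (SE 0.06, edgeR adjusted p = 1.53e-15), without overlap. Dpp4, which acts on the product of that step, was at 490 to 715 CPM (median 553) in sham and 169 to 298 CPM (median 254) in Glenn libraries.

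The libraries did not overlap for Dpp4 either, and it fell by 1.24 (SE 0.07, edgeR adjusted p = 3.53e-15). Ece1, endothelin-converting enzyme, which also hydrolyses bradykinin, fell by 0.34 (SE 0.06, adjusted p = 1.40e-05). Cpd fell by 0.30 (SE 0.06, adjusted p = 0.000251), a call lost among libraries low in RT1-CE16 (adjusted p = 0.0598), and Cpm was the other that fell. Type 2 alveolar markers fell in the same libraries, 7 of 7 averaged over diets (median log2 change -0.43), 7 of 7 on the deficient, 2 of 7 on the excess and 0 of 7 on the control diet. Their sum was 46265 CPM ± 8068 in sham and 35503 CPM ± 9604 in Glenn libraries (SD, n = 15), with overlap, and the part of these epithelial cells in the falls of Mme, Enpep, Anpep and Cpm was not tested. Together with Ace and Mme, the enzyme genes Xpnpep2 and Dpp4 fell on each of the 3 diets. Between diets, none of the 28 passed except after Glenn surgery on the excess against the control diet, where Mtus1 was 0.47 higher (edgeR adjusted p = 0.00542) and Xpnpep2 0.46 higher (adjusted p = 0.0385). In that comparison 1.47% of all genes passed, 237 in the reported fit and from 2 to 557 in other fits. The libraries overlapped for Xpnpep2 but not for Mtus1. Numbers above 500 were held by 3 Glenn excess and 0 Glenn control libraries. These 2 calls were not examined in other fits.

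**Figure D4:**
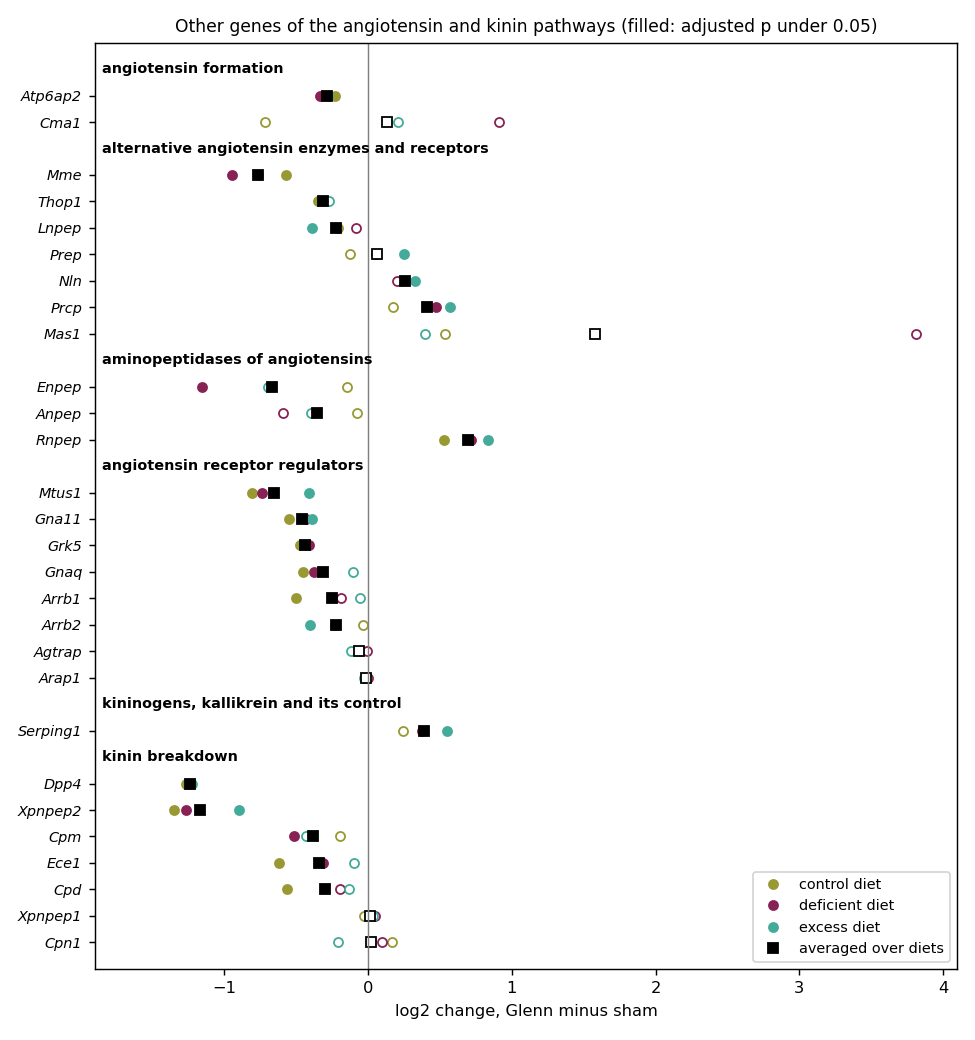
Log2 change, Glenn minus sham (x axis), of the 28 tested genes of the 2 pathways, by list, on each diet (circles) and averaged over diets (squares); filled symbols passed an edgeR adjusted p of 0.05. Averaged over diets, Dpp4 and Xpnpep2 lie farthest to the left, Rnpep is the gene farthest to the right among those that passed, and Mas1, with values as low as 0 CPM, has open symbols at larger changes.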

How the data were processed

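RNA was sequenced from 30 libraries of CD31-positive rat lung cells (6 groups of 5, groups from the labels); SMART-Seq v4 libraries were made per the labels. The authors deposited estimated counts per gene, and the submitters' processing notes name FastQC, Trim Galore, Picard, STAR, Salmon and the mRatBN7.2 (rn7) build; versions are not given in the sources used here. Of the deposited values, 13.6% were not whole, and estimated counts were rounded. No gene coordinates are given, since the reference is another build (GRCr8); promoters are RefSeq's.

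Genes were filtered with filterByExpr (minimum count 10, total 15), scaled by TMM (factors 0.94 to 1.06) and fitted over all libraries with edgeR 4.0.16 (quasi-likelihood, R 4.3.3), with the 6 groups and the library number range as terms. P-values were Benjamini-Hochberg adjusted over 16171 genes, with 0.05 as the threshold. Alternatives used DESeq2 1.42.0 and limma 3.58.1 (voom), other terms, filters and subsets, and left out each library. In simulated data with 200 changed genes among 16171 (Glenn minus sham averaged over diets), edgeR recovered 177 with 6 false calls, voom 177 with 8 and DESeq2 180 with 27. Every planted change was larger than the averaged changes of Agt and Agtr1a. In the real contrast 48.2% of genes were called, so these rates cover neither smaller changes nor so broad a shift. Within groups, the 60 library pairs had a chi-square per degree of freedom of 20.5 to 122, so no pair agreed within sampling noise.

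The 7 genes and all lists were chosen with earlier results of these data known. From each pathway list, up to 4 genes past the threshold averaged over diets are named, by smallest adjusted p, and genes not tested are named without values. Some genes that the lists or rules would name are not reported here and were left out of the pathway counts.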

Additional observations from a re-analysis of the deposited data

Results flagged for a closer look

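In groups of 5 libraries, the highest or lowest library was compared with its nearest neighbour, as the gap divided by the whole range of the group, with a critical value of 0.71. Of the 39 sets of 5 libraries with any spread, 4 passed, where chance alone gives about 1.95, and all 4 were of genes at a few counts. Agtr1b passed in 3 groups, each with a gap ratio of 1 because the other 4 libraries were at 0: sham control replicate 1 (1 count, 0.0252 CPM), Glenn control replicate 5 (2.005 counts, 0.0450 CPM) and Glenn excess replicate 3 (5 counts, 0.149 CPM). Agtr2 passed in the sham deficient group with a gap ratio of 0.720, since replicate 5 had 4 counts (0.112 CPM) and the others 0 to 0.0314 CPM. No set of Ace, Agt, Agtr1a or Bdkrb2 passed.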

How the results depend on the processing

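Across the 41 other fits averaged over diets, Ace stayed between -1.04 and -0.80 and Bdkrb2 between 1.82 and 2.09, always past the threshold. Leaving out single libraries gave 3 of the 4 tested genes on the control diet in every fit, 2 to 3 on the deficient, 2 to 3 on the excess diet and 4 averaged over diets, and 0 in every comparison between diets and in the interaction. Among RT1-CE16-high libraries, a subset chosen after seeing the data, 1 gene passed on the control diet instead of 3, with fewer samples. Limma voom called 1 gene, not 0, in excess against control after Glenn surgery; the cause was not tested. The fits among RT1-CE16-low libraries and without 3 libraries were also chosen after seeing the data, and the excess diet and the average could not be fitted among RT1-CE16-high libraries.

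With the replicate block the averaged changes were -0.98 for Ace, -0.70 for Agt, 0.44 for Agtr1a and 1.97 for Bdkrb2, and no call of these genes changed. The labels tie the numbers to no shared animal, litter or day, and same-numbered deviations correlated at -0.246 to 0.292, so the numbers were not taken as pairs. As a hint of shared numbers from the data, 17 of 30 libraries were closest to their own number, more than chance over 5 numbers would give. Replicates 1 and 2 were low in RT1-CE16 in every group. Over all genes the block moved excess against control from 39 to 111 after sham and from 237 to 34 after Glenn surgery, excess against deficient after sham from 2 to 4, and the interaction from 1 to 2.

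Counts over all genes moved by over 1.5 times: Glenn against sham from 4023 to 1563 (RT1-CE16-low) or 2497 (high) on the control diet, from 4423 to 2336 (high), 2398 (low) or 2553 (numbered below 500) on the deficient diet, and from 3549 to 1960 (only its groups), 2152 (low) or 2270 (numbered below 500) on the excess diet. Between diets they spanned 0 to 19 (deficient against control) and 0 to 210 (excess against control, 39 in the reported fit) and 0 to 12 (excess against deficient) after sham, and 1 to 63, 2 (without Glenn excess replicate 1) to 557 (without Glenn control replicate 1) and 0 to 6 in the same order after Glenn surgery. The difference of the surgery effect between excess and control spanned 0 to 55 and the interaction 0 to 35.

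Depth limits Agtr1b, Agtr2 and Bdkrb1, at no more than 25 counts in a library.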

Other observations

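Further cell type marker lists were summed in the same way. Of all tested genes 23.4% were higher and 24.7% lower after Glenn surgery, averaged over diets. The lymphatic markers, such as Prox1 and Lyve1, summed to 1629 CPM ± 220 in sham and 3246 CPM ± 646 in Glenn libraries (SD, n = 15), without overlap, and 6 of 6 were higher. The aerocyte capillary markers, of the capillary cells that line gas exchange surfaces, summed to 1857 CPM ± 301 in sham and 1071 CPM ± 111 in Glenn libraries, also without overlap, with 4 of 6 lower and 1 higher. Fibroblast and type 2 alveolar sums are given above. The type 1 alveolar markers summed to 804 CPM ± 126 in sham and 1185 CPM ± 312 in Glenn libraries, with overlap, and 4 of 5 were higher and 1 lower. Of the mast cell markers, of the cells that make chymase, only Kit passed and was lower, at 515 CPM ± 74.2 in sham and 346 CPM ± 43.2 in Glenn libraries. The other 4, Cpa3, Fcer1a, Ms4a2 and Tpsab1, had mean levels of at most 1.22 CPM in either group and did not pass, and the median log2 change of the 5 was 0.68. Kit thus stood alone in this list, and the cell type behind its level was not tested. Leukocyte markers were low throughout, at 29.1 CPM ± 10.8 in sham and 38.0 CPM ± 11.4 in Glenn libraries, and the macrophage gene Marco was at 0 in every sham library. Among the remaining lists, 6 of 8 arterial markers were higher and 2 lower, 2 of 6 venous markers higher and 3 lower, 1 of 4 airway epithelial markers higher and 1 lower, and 0 of 4 mesothelial markers passed. The 2 erythroid markers found were higher, at sums of 0.159 CPM ± 0.165 in sham and 1.13 CPM ± 1.52 in Glenn libraries.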
